A study of Mus musculus with 25 samples.

Results

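The heat shock and cytosolic chaperone genes described here are 31 mouse genes, taken from a fixed list of symbols. That list was drawn up with earlier results of these data known. All 31 were listed in both deposited expression tables, among 24015 gene symbols, and all 31 passed the filter on low values in tumours and in cells. They are the heat shock transcription factor Hsf1, 5 HSP70 and HSP110 genes (Hspa1a, Hspa1b, Hspa8, Hspa4, Hsph1), the cytosolic HSP90 genes (Hsp90aa1, Hsp90ab1), the small heat shock proteins with their partner Bag3 (Hspb1, Hspb8, Cryab, Bag3), 3 J proteins (Dnaja1, Dnajb1, Dnajb4), the 8 subunits of the TRiC folding chamber (Tcp1, Cct2, Cct3, Cct4, Cct5, Cct6a, Cct7, Cct8), 5 co-chaperones (St13, Stip1, Ahsa1, Chordc1, Fkbp4) and 3 mitochondrial chaperones (Hspa9, Hspd1, Hspe1). The last 3 work in mitochondria and not in the cytosol, although they belong to the same stress families.

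Chaperones bind unfolded proteins and help them fold, refold or be degraded. HSP70 holds client proteins with the help of J proteins and of nucleotide exchange factors, HSP90 finishes the folding of kinases, steroid receptors and other signalling proteins, and TRiC folds actin and tubulin. In stressed cells HSF1 forms trimers, binds inverted repeats of the bases GAA in promoters, and switches on the inducible members of these families.

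The CCG-1423 group held 3 libraries of ASZ001, a line of mouse basal cell carcinoma cells labelled resistant, treated with CCG-1423, an inhibitor of transcription driven by SRF and its MRTF coactivators. The vismodegib group held 3 libraries of the same line given vismodegib, which blocks Smo, the membrane protein that turns the Hedgehog pathway on, and the vehicle group held 3 libraries of the same line. The resistant and the sensitive group each held 4 basal cell carcinoma libraries from mice of strain C57BL6 that were Ptch+/- and carried K14 Cre-ER together with p53 fl/fl alleles, and mice of both groups had received an oral Smo inhibitor, so no tumour came from an untreated animal. Cre-ER is driven here by the keratin 14 promoter, which is active in basal keratinocytes and not in stroma. ASZ001 is 1 cell line, so the cell results describe that line. The labels give no doses, treatment times or animal ages, and do not say whether replicates were separate animals or cultures. The p-values therefore reflect the spread among these libraries only, and that spread may be technical.

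Reads at genes numbered 32024887 to 41040633 per CCG-1423 library, 30455530 to 35561668 per vismodegib library and 32192090 to 44017757 per vehicle library. Resistant tumours held 17537094 to 20014426 reads, sensitive tumours 1 to 3 held 8111252 to 11125956 and sensitive tumour 4 held 14161398. All 6 basal keratinocyte markers (Krt5, Krt14, Krt15, Trp63, Itga6, Itgb4) were detected in every group. Sensitive tumour 4 stood apart from its group: on the first principal component, which carried 65.9% of the variance between tumours, it lay at -66.0, with resistant tumours at -65.5 to -48.3 and the other sensitive tumours at 88.7 to 98.1. It is called sensitive here as its label has it, and whether that label is right cannot be settled from the files, which bears on every tumour count below. The tumour fit was therefore run with and without it. Values are normalized counts, that is reads divided by 1 size factor per library. They are not per gene length, so they compare libraries and not genes.

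CCG-1423 moved the chaperone genes in both directions in ASZ001 cells. Cryab, the small heat shock protein also known as alpha-B crystallin, was 6.43-fold higher than in vehicle, and the mitochondrial HSP70 gene Hspa9 was 2.47-fold higher. Hspb1, the small heat shock protein HSP27, was 3.91-fold lower, and Hspa8, the constitutive HSP70, was 2.04-fold lower. Both HSP90 genes and all 3 J proteins fell, while TRiC subunits split. In the limma fit over all genes, 24 of 31 members passed an adjusted p of 0.05 (Benjamini-Hochberg), 10 higher and 14 lower. Among all 12775 genes tested 85.3% passed, with 42.8% higher and 42.6% lower, so the members' share is near the background. A change of at least 2-fold was reached by 4 of 31 members, against 26.9% of all genes tested. The median log2 fold change was -0.03 over the members and 0.0034 over all genes tested.

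**Figure D1:**
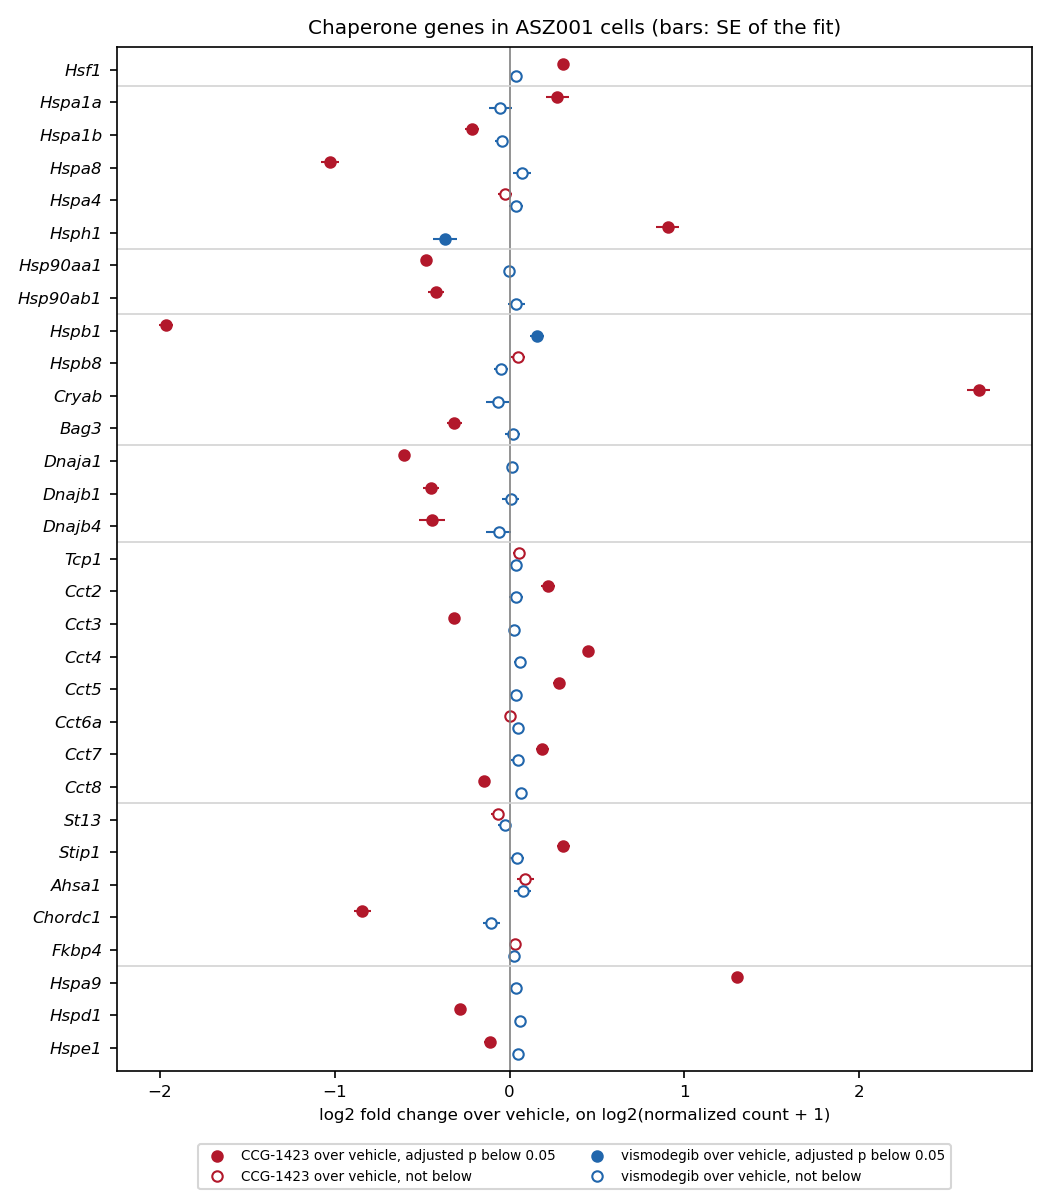
Log2 fold change of each of the 31 genes over vehicle in ASZ001 cells (x axis, on the log2(normalized count + 1) scale; genes down the y axis in role groups), with CCG-1423 in red above vismodegib in blue; bars are the SE of the fit and filled points passed an adjusted p of 0.05. The red points run from -1.97 (Hspb1) to 2.68 (Cryab), and the blue ones from -0.37 (Hsph1) to 0.16 (Hspb1).

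Hsf1 itself had 2256, 2327 and 2333 normalized counts with CCG-1423, against 1852, 1877 and 1857 with vehicle. Every CCG-1423 library was above every vehicle library. The means were 2305 ± 42.6 and 1862 ± 13.2 (SD, n = 3 each), a log2 fold change of 0.31 ± 0.03 (SE) with a limma adjusted p of 2.46e-07. Hsf1 activity is set largely after translation, by release from chaperones and by modification, so its mRNA level is not a readout of that activity.

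In the HSP70 and HSP110 group 2 genes rose, 2 fell and 1 did not pass. Hspa8 supplies the constitutive cytosolic HSP70 that uncoats vesicles and folds new proteins. It had 33426, 40092 and 38809 normalized counts with CCG-1423, against 75699, 75895 and 76668 with vehicle, so the groups lay far apart and CCG-1423 library 1 was the lowest. Its log2 fold change was -1.03 ± 0.05 (SE; limma adjusted p = 2.84e-11). Hsph1, an HSP110 protein that exchanges nucleotide on HSP70, went the other way, with 11736, 15188 and 14744 in CCG-1423 cells, against 7409, 7336 and 7366 in vehicle cells (log2 fold change 0.90 ± 0.07, limma adjusted p = 3.14e-09). Hspa4, another HSP110-family protein, gave 20741 ± 1453 in CCG-1423 cells and 21096 ± 161 in vehicle cells (SD, n = 3 each), with overlapping groups and a limma adjusted p of 0.542.

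Hspa1a and Hspa1b encode the stress-inducible HSP70 and are near-identical neighbouring copies. The 200 bases before their starts are shown because they are the same at 199 of 200 positions (99.5%), and because each holds 1 head-to-head pair of heat shock units. The sequences are from RefSeq, build GRCm38.p6, chr17:34972157-34972356 for Hspa1a and chr17:34959239-34959438 for Hspa1b, both on the minus strand, and capitals mark the match to GAANNTTC.
Hspa1a: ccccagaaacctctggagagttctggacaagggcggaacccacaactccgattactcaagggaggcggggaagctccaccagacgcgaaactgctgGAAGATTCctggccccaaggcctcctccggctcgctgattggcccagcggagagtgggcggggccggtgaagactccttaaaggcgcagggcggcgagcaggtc
Hspa1b: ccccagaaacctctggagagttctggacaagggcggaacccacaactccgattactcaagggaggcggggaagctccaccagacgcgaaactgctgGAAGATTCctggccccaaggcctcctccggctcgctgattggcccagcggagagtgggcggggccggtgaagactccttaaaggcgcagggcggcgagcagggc
The labels do not say how reads were shared between the copies, so the values of each are uncertain. Hspa1a had 841, 914 and 971 normalized counts with CCG-1423, against 724, 777 and 752 with vehicle. Hspa1b had 10637, 10754 and 10376 with CCG-1423, against 12061, 12325 and 12469 with vehicle. The copies thus moved in opposite directions by small amounts without overlap, Hspa1a with a log2 fold change of 0.27 ± 0.06 and Hspa1b with -0.21 ± 0.04 (SE; limma adjusted p = 0.00103 and 7.83e-05). Of the reads assigned to either copy, Hspa1a took 7.33% to 8.55% in CCG-1423 libraries, 5.56% to 5.97% in vismodegib libraries and 5.66% to 5.93% in vehicle libraries.

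Both HSP90 genes fell. Hsp90aa1, the more stress-inducible form, had 10275, 10237 and 10321 normalized counts with CCG-1423, against 14314, 14241 and 14348 with vehicle. Hsp90ab1, the constitutive form, had 85794, 98179 and 97046 with CCG-1423, against 126406, 124293 and 124992 with vehicle. Neither gene's groups overlapped, and CCG-1423 library 1 was again the lowest for Hsp90ab1. The log2 fold changes were -0.48 ± 0.03 for Hsp90aa1 and -0.42 ± 0.05 for Hsp90ab1 (SE; limma adjusted p = 9.06e-11 and 5.86e-07).

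The small heat shock proteins, which hold unfolding proteins without ATP and bind actin and intermediate filaments, showed the widest spread of the 31 genes. Hspb1 had 10052, 11463 and 10850 normalized counts with CCG-1423, against 42260, 41878 and 42240 with vehicle. The fall was 3.91-fold, a log2 fold change of -1.97 ± 0.04 (SE; limma adjusted p = 9.94e-16). Cryab had 12104, 15719 and 14730 with CCG-1423, against 2156, 2185 and 2235 with vehicle, a log2 fold change of 2.68 ± 0.07 (limma adjusted p = 6.26e-15). The CCG-1423 and vehicle libraries lay far apart for both genes, on opposite sides. Bag3, the exchange factor that links HSP70 to small heat shock proteins and to autophagy, fell with a log2 fold change of -0.32 ± 0.04, whereas its partner Hspb8 averaged 8773 ± 553 with CCG-1423 and 8472 ± 138 with vehicle (SD, n = 3 each) and did not pass (limma adjusted p = 0.246).

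The Hspb1 promoter is shown because this gene fell most. It comes from RefSeq, GRCm38.p6, chr5:135887719-135887918 on the plus strand, and covers the 200 bases before the start. Capitals mark its 2 matches to GAANNTTC.
Hspb1: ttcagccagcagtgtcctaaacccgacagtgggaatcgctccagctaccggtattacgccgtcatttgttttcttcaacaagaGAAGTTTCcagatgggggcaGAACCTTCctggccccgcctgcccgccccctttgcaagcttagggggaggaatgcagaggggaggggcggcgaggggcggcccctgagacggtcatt
Of the 31 genes, 23 matched an entry of the RefSeq promoter table, and Hsf1, Hspa8, Hspa9, Hsp90aa1, Hsp90ab1, Cryab, Cct4 and St13 did not. Over windows from 250 bases before to 50 bases after the start, read on both strands, the head-to-head pair GAANNTTC was found in 12 of the 23 genes (52.2%) and in 9.04% of 27025 genes in the table. The tail-to-tail pair TTCNNGAA was found in 7 of 23 (30.4%) and in 9.6% of genes. The motif of 3 units, GAANNTTCNNGAA, which contains both pairs, was found in 4 of 23 (17.4%), namely Chordc1, Hspd1, Hspe1 and Hsph1, and in 0.662% of genes. These 4 genes did not share a direction with CCG-1423: Hsph1 rose, and Chordc1, Hspd1 and Hspe1 fell. Windows of Hspd1 and Hspe1 overlap and hold the same site, and those of Hspa1a and Hspa1b are near-identical. The counts of members with a motif therefore hold such sites more than 1 time.

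All 3 J proteins, which deliver clients to HSP70 and start its ATP cycle, fell. Dnaja1 had 6364, 6581 and 6732 normalized counts with CCG-1423, against 9981, 10083 and 9869 with vehicle, without overlap. Its log2 fold change was -0.61 ± 0.03 (SE; limma adjusted p = 1.25e-11). Dnajb1, the stress-inducible HSP40, changed by -0.45 ± 0.05 and Dnajb4 by -0.44 ± 0.07 on the same scale (limma adjusted p = 1.98e-07 and 4.22e-05).

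The TRiC subunits assemble 1 to 1 into a double ring, yet their mRNAs did not move together. Cct4 had 10387, 10548 and 10766 normalized counts with CCG-1423, against 7938, 7606 and 7645 with vehicle, and Cct2 had 15532, 17488 and 17376, against 14484, 14305 and 14362. For both, every CCG-1423 library was above every vehicle library. Cct4 rose most (log2 fold change 0.45 ± 0.03), followed by Cct5 (0.28 ± 0.03), Cct2 (0.22 ± 0.04) and Cct7 (0.19 ± 0.04), each with its SE. Cct3 and Cct8 fell, with -0.32 ± 0.03 and -0.15 ± 0.03. Tcp1 and Cct6a did not pass (limma adjusted p = 0.15 and 0.963). The largest of these limma adjusted p-values among the 6 subunits that passed was 0.000321.

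Among the co-chaperones 1 rose, 1 fell and 3 did not pass. Chordc1, a zinc-binding HSP90 partner, had 941, 859 and 984 normalized counts with CCG-1423, against 1721, 1647 and 1623 with vehicle. Its log2 fold change was -0.84 ± 0.05 (SE; limma adjusted p = 1.19e-10), and no CCG-1423 library came near the vehicle range. Stip1, the HOP protein that hands clients over between HSP70 and HSP90, rose by 0.31 ± 0.04 (limma adjusted p = 1.45e-06). Fkbp4, an immunophilin of steroid receptor complexes, had 16660, 16589 and 16779 with CCG-1423, against 16456, 16418 and 16034 with vehicle; the groups did not overlap, but the difference of 0.03 ± 0.03 did not pass (limma adjusted p = 0.265). The HSP70-interacting protein St13 gave -0.07 ± 0.04 and the HSP90 ATPase activator Ahsa1 gave 0.09 ± 0.05, neither passing (limma adjusted p = 0.104 and 0.0836).

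The mitochondrial chaperones did not move as 1 unit. Hspa9, mortalin, which pulls proteins through the inner membrane, had 48322, 48802 and 49322 normalized counts with CCG-1423, against 19838, 19812 and 19665 with vehicle. The spread within each group was small beside the gap, and the log2 fold change was 1.30 ± 0.03 (SE; limma adjusted p = 1.05e-15). The HSP60 ring Hspd1 and its lid Hspe1 fell slightly, with -0.28 ± 0.03 and -0.11 ± 0.03 (limma adjusted p = 9.12e-08 and 0.00361). The Hspe1 call was lost when libraries were scaled by total reads without Rn45s, a ribosomal RNA precursor.

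**Figure D2:**
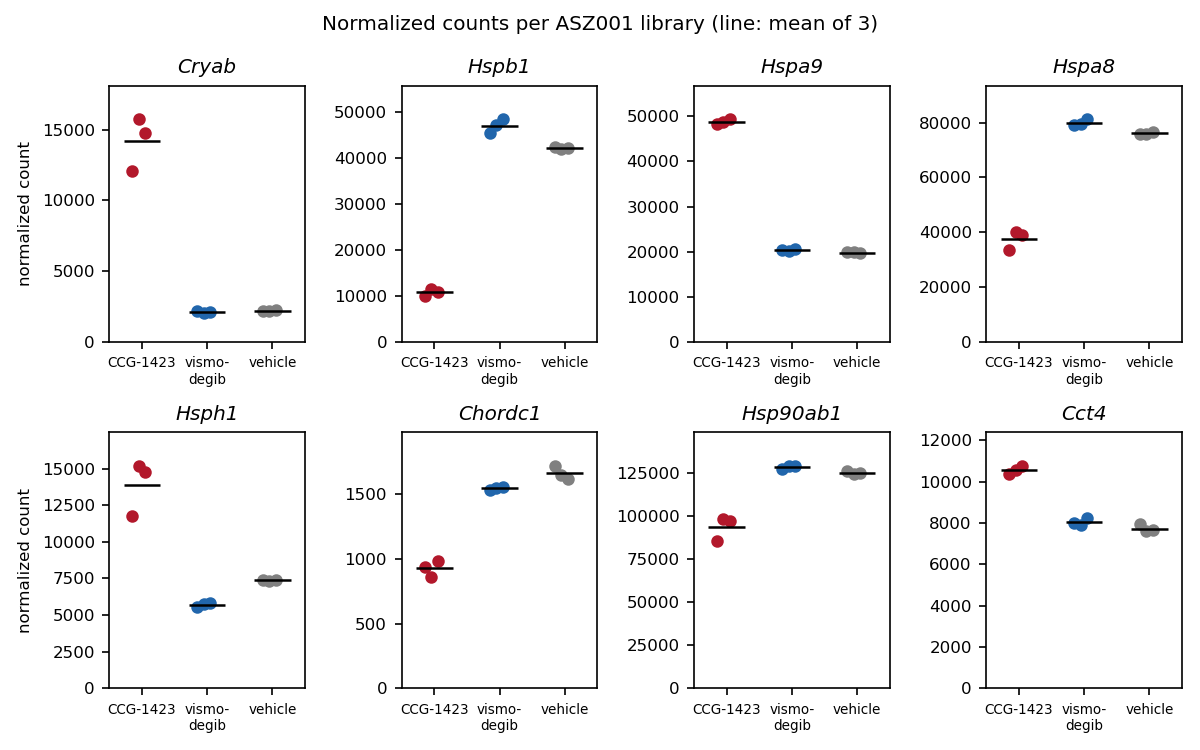
Normalized counts (y axis, linear from 0) of 8 chaperone genes in each ASZ001 library, grouped as CCG-1423, vismodegib and vehicle (x axis); points are libraries and lines are means of 3. CCG-1423 libraries stand apart from both other groups in every panel, above them for Cryab, Hspa9, Hsph1 and Cct4 and below them for Hspb1, Hspa8, Chordc1 and Hsp90ab1.

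Lists of neighbouring chaperone genes outside the 31 also held genes of both directions with CCG-1423. Their counts are read against the 85.3% of all genes that passed, 42.8% higher and 42.6% lower. Among other HSP70 and HSP110 proteins and exchange factors, 6 rose and 5 fell of 11 tested, with Hspa4l, an HSP110 protein of testis and other tissues, at 27616 ± 2670 in CCG-1423 cells and 5157 ± 48.6 in vehicle cells (SD, n = 3 each; log2 fold change 2.42 ± 0.05). Of 11 mitochondrial partners and proteases 8 rose and 3 fell, led by the matrix protease Lonp1 at 1.38 ± 0.03 and the mitochondrial J protein Dnaja3 at 1.11 ± 0.03, with Dnajc19 of the import motor at -1.43 ± 0.07 and the mitochondrial HSP90 Trap1 at -0.50 ± 0.03. Of 15 other HSP90 co-chaperones 4 rose and 9 fell, with Cdc37l1 at -1.43 ± 0.03 and the phosphatase Ppp5c at 0.46 ± 0.04. Of 9 other cytosolic J proteins 5 rose and 4 fell, with Dnajb2 at -1.19 ± 0.04 and Dnajc2 at 0.48 ± 0.03. Of 9 prefoldin subunits and TRiC partners 3 rose and 4 fell, with Pfdn2 at 0.66 ± 0.05 and Txndc9 at -1.31 ± 0.04. Hspb2, whose gene lies head to head with Cryab, rose with 1.33 ± 0.08, Hsf2 rose with 0.87 ± 0.08, and Hsbp1, a binding partner of HSF1, fell with -0.36 ± 0.04. Each gene named here passed a limma adjusted p of 0.05, and the list medians of log2 fold change ran from -0.12 for HSP90 co-chaperones to 0.71 for the 2 other small heat shock proteins tested, beside 0.0034 over all genes.

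Other measures moved with CCG-1423 too, and their part in these results was not tested. The summed count of the 6 basal keratinocyte markers, all detected, was 222958 to 229349 with CCG-1423 and 1143440 to 1169010 with vehicle. The 6 listed differentiated keratinocyte markers, Krt2 at 0 in both groups, summed to 764 to 948 with CCG-1423 and 5549 to 6096 with vehicle. Malat1, a nuclear RNA, took 0.134% to 0.174% of reads with CCG-1423 and 0.0695% to 0.0800% with vehicle. The 5 listed macrophage markers summed to 778 to 942 with CCG-1423 and 413 to 461 with vehicle, where Lyz2 was at 0, and the 5 endothelial markers to 266 to 315 and 870 to 899, with Kdr and Tie1 at 0 in both groups. In each of these groups 4 of the 5 endothelial and 3 of the 5 macrophage markers had at most 3 reads in every library. These sums thus rest on few genes. Of 9 immediate early genes 8 rose and 1, Jun, fell; their summed count was 26513 to 32234 with CCG-1423 and 16804 to 16914 with vehicle. Rn45s took 6.62% to 10.4% of reads with CCG-1423, the highest share in library 1, against 5.81% to 6.70% with vehicle. Leaving out CCG-1423 library 1 gave 27 members called, 13 higher and 14 lower, beside 10947 of 12877 genes tested, 5465 higher and 5482 lower.

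Vismodegib left the chaperone genes close to their vehicle levels. Of 31 members 2 passed, Hsph1 lower and Hspb1 higher, against 5.50% of the 12775 genes tested (limma, Benjamini-Hochberg adjusted p of 0.05). In each direction this was 1 member, beside 1.58% of genes higher and 3.92% lower, and no member reached a 2-fold change, which 0.274% of genes did. The same vehicle libraries serve both compound comparisons. These p-values rest on a spread pooled over all 9 cell libraries, including the CCG-1423 libraries. For Hspa8 the SD was 3537 with CCG-1423, against 1148 with vismodegib and 512 with vehicle. A fit of the vismodegib and vehicle libraries alone called 3 members higher and 2 lower, beside 769 genes higher and 952 lower of 12440 tested. Genes that did not pass below are therefore not shown to be unchanged.

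Hsph1 had 5541, 5744 and 5838 normalized counts with vismodegib, against 7409, 7336 and 7366 with vehicle. All 3 vismodegib libraries lay below the vehicle libraries, with a log2 fold change of -0.37 ± 0.07 (SE; limma adjusted p = 0.00361). Hspb1 had 45421, 47184 and 48370 with vismodegib, against 42260, 41878 and 42240 with vehicle. Its groups did not overlap either, with a log2 fold change of 0.16 ± 0.04 (limma adjusted p = 0.0381). The Hspb1 call was lost in 5 of the 6 fits that left out 1 vismodegib or vehicle library (all but vismodegib library 1), and without the filter on low values.

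Among the 29 members that did not pass, the log2 fold change with vismodegib ran from -0.10 for Chordc1 to 0.07 for Ahsa1. Chordc1 had 1537, 1550 and 1555 normalized counts with vismodegib, against 1721, 1647 and 1623 with vehicle; the groups did not overlap, but the limma adjusted p was 0.259. Hspa8 had 78968, 79591 and 81194 with vismodegib, against 75699, 75895 and 76668 with vehicle (limma adjusted p = 0.513). Hsf1 had 1919, 1888 and 1930 with vismodegib and 1852, 1877 and 1857 with vehicle, a difference of 0.04 ± 0.03 on the log2 scale. These genes thus lay slightly to 1 side of vehicle without passing.

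The 8 TRiC subunits had log2 fold changes of 0.025 to 0.064 with vismodegib and none passed. Cct8 had 9586, 9584 and 9637 normalized counts, against 9166, 9190 and 9193 with vehicle, and Tcp1 had 15367, 15286 and 15858, against 15164, 15128 and 15079. Both genes were higher in every vismodegib library by a few percent (limma adjusted p = 0.273 and 0.639). Among the mitochondrial chaperones, Hspd1 had 19895, 19283 and 19658 with vismodegib, against 18697, 18819 and 18971 with vehicle, and Hspa9 had 20260, 20060 and 20638, against 19838, 19812 and 19665. Neither of these passed either (limma adjusted p = 0.272 and 0.491). Hsp90ab1 (127470, 129222 and 129192 with vismodegib, 126406, 124293 and 124992 with vehicle) did not pass. The J protein Dnaja1 had 10206, 10098 and 9955 with vismodegib, against 9981, 10083 and 9869 with vehicle, and Dnajb4 had 593, 517 and 534, against 589, 606 and 524. Their groups overlapped, with log2 fold changes of 0.02 ± 0.03 and -0.06 ± 0.07 (SE). Fkbp4 had 16318, 16657 and 16798 with vismodegib, against 16456, 16418 and 16034 with vehicle, which overlapped as well.

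In all, 11 of 31 members had every vismodegib library above every vehicle library and 3 had every one below, beside 16.0% and 14.0% of all genes tested. Scaling mattered here. With scaling by total reads, 16 members were called higher and 1 lower, beside 2923 genes higher and 306 lower of 12775 tested. Of the genes called, 90.5% were higher, against 28.7% in the deposited scaling. Rn45s took 1.39% to 1.58% of reads with vismodegib and 5.81% to 6.70% with vehicle, and with Rn45s left out of the total the members called were again 1 higher and 1 lower. Outside the 31 genes, 1 of 9 other cytosolic J proteins passed as higher with vismodegib, Dnajc21 (log2 fold change 0.24 ± 0.04), and 1 as lower, Dnajb6 (-0.16 ± 0.03). Of 15 other HSP90 co-chaperones 1 passed as lower, the p23 gene Ptges3 (-0.17 ± 0.03). No other gene of the same lists passed, beside 5.50% of all genes tested.

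Set directly against vismodegib, CCG-1423 changed 25 of 31 members, 11 higher and 14 lower, beside 84.8% of all genes tested and 42.4% in each direction (limma, Benjamini-Hochberg adjusted p of 0.05). A 2-fold difference was reached by 5 members, beside 27.4% of genes. Cryab was 6.74-fold higher, Hsph1 2.42-fold higher and Hspa9 2.40-fold higher with CCG-1423 than with vismodegib, while Hspb1 was 4.36-fold lower and Hspa8 2.14-fold lower. For Hsph1 the vismodegib value lay below vehicle and the CCG-1423 value above it, so this difference of 1.27 ± 0.07 on the log2 scale exceeded its change over vehicle. For Hspb1 the order was reversed, with vismodegib above vehicle and CCG-1423 below it. The 6 members that did not pass were Hspa4, Tcp1, Cct6a, St13, Ahsa1 and Fkbp4. Hspb8 passed with 0.10 ± 0.04 (limma adjusted p = 0.0268), but its groups overlapped and the call was lost in a fit of these 2 groups alone. With no doses or times in the labels, these values describe the cultures as treated.

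In the tumours, no chaperone gene separated resistant from sensitive libraries at the threshold when all 8 were fitted. The limma fit called 0 of 31 members, beside 0.113% of 15076 genes tested (17 genes). At an unadjusted p of 0.05, 8 members passed, beside 25.1% of all genes, so the members' share is near the background. The count tests called 0 members in edgeR, where 0 genes passed, and 2 in DESeq2, Hspa1a and Cryab, both lower, beside 11.0% of 14907 genes. The median log2 fold change of resistant over sensitive was 0.35 over the members, with 25 of 31 above 0, and 0.03 over all genes tested. Groups that did not overlap were found for 2 members, Hspe1 higher and Cryab lower in resistant tumours, beside 7.90% of genes.

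Without sensitive tumour 4 the count was 20 of 31 members, 16 higher and 4 lower in resistant tumours, beside 40.0% of 15479 genes, 20.6% higher and 19.4% lower. That library was left out because its expression lay with the resistant tumours, so p-values of this fit tend to be too small. Calls of the fit without it, here and below, are therefore descriptive. Groups did not overlap for 18 members higher and 4 lower, beside 24.3% and 23.3% of genes. The median over the members was then 0.49, with 24 of 31 above 0, and 0.02 over all genes. No other single tumour had this effect: leaving out any of the other 7 gave 0 members called. In bulk tumour RNA, fewer cells of a type and less RNA per cell cannot be told apart.

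**Figure D3:**
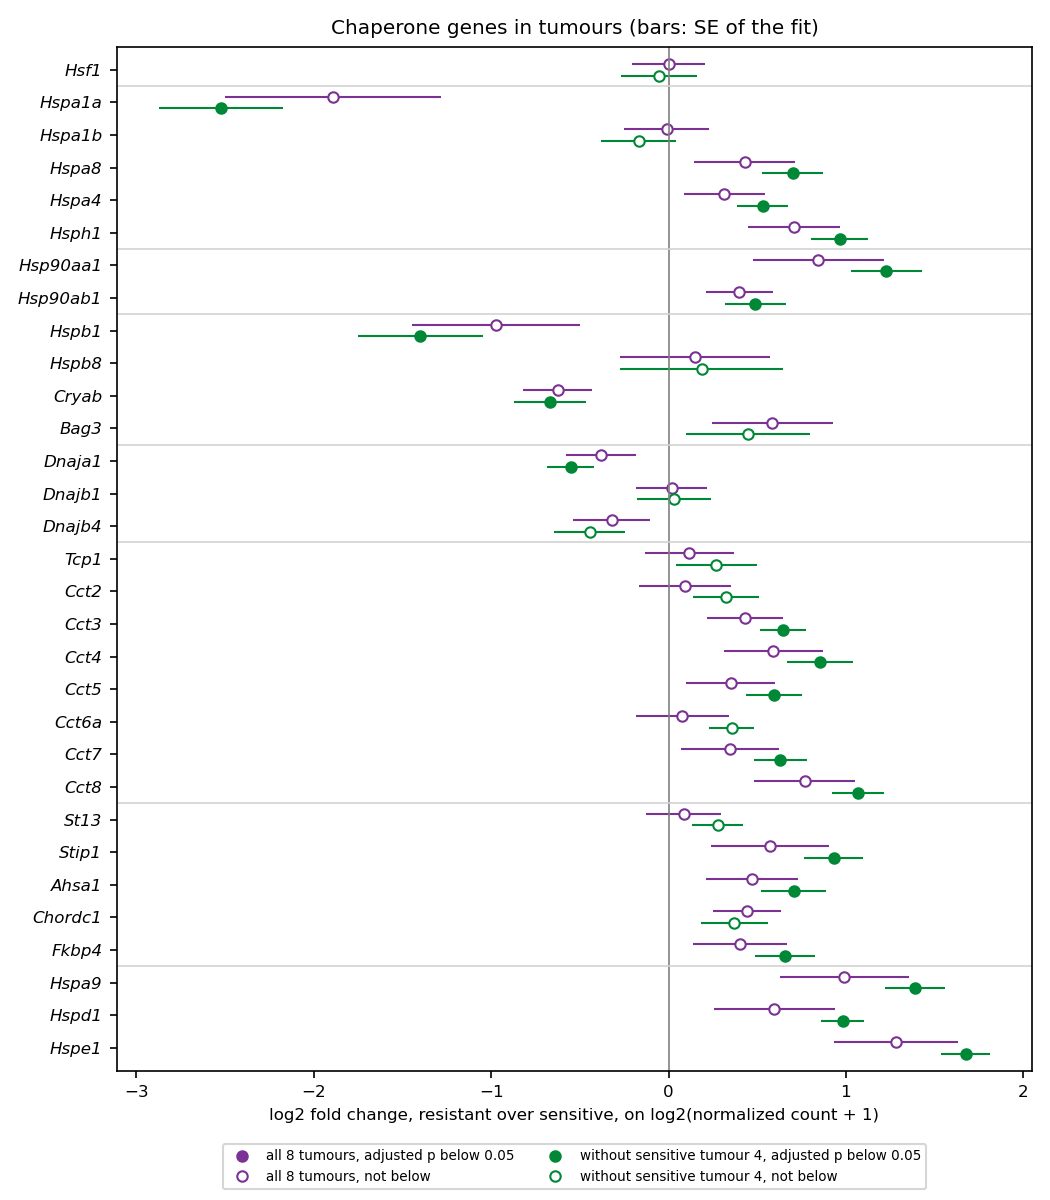
Log2 fold change of resistant over sensitive tumours for each of the 31 genes (x axis, on the log2(normalized count + 1) scale; genes down the y axis in role groups), with all 8 tumours in purple and without sensitive tumour 4 in green; bars are the SE of the fit and filled points passed an adjusted p of 0.05. No purple point is filled, and 20 green points are filled, 16 right and 4 left of 0.

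Hsf1 had 944, 966, 1436 and 781 normalized counts in resistant tumours 1 to 4, against 939, 986, 1227 and 899 in sensitive tumours 1 to 4. The groups overlapped fully, with means of 1032 ± 282 and 1013 ± 147 (SD, n = 4 each). Without sensitive tumour 4 the log2 fold change was -0.05 ± 0.21 (SE; limma adjusted p = 0.864).

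Hspa1a gave the largest difference of the 31. It had 101, 167, 64.2 and 164 normalized counts in resistant tumours, against 559, 616, 876 and 116 in sensitive tumours. Sensitive tumours 1 to 3 were all far above the rest, and sensitive tumour 4 lay inside the resistant range. The log2 fold change was -1.89 ± 0.61 with all 8 tumours (SE; limma adjusted p = 0.147) and -2.53 ± 0.35 without sensitive tumour 4 (limma adjusted p = 0.00105). Hspa1b, its near-identical copy, had 423, 605, 491 and 509 in resistant tumours, against 437, 555, 745 and 364 in sensitive tumours, and the groups overlapped under either fit. Of the reads assigned to either copy, Hspa1a held 19.3% (95% Wilson interval 16.4 to 22.7), 21.7% (19.3 to 24.3), 11.6% (9.39 to 14.1) and 24.4% (21.8 to 27.2) in resistant tumours 1 to 4, against 56.1% (52.8 to 59.4), 52.6% (49.2 to 56.0), 54.0% (50.9 to 57.1) and 24.1% (20.5 to 28.1) in sensitive tumours 1 to 4. The reads assigned to the copies therefore did not keep a constant ratio across tumours, and these intervals cover counting error only. How reads were shared between the copies is not known, so the tumour values of each copy are uncertain as well.

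The other HSP70 and HSP110 genes were higher in resistant tumours once sensitive tumour 4 was left out. Hspa8 had 22930, 28920, 32886 and 30411 normalized counts in resistant tumours, against 18671, 17602, 16519 and 37149 in sensitive tumours. Sensitive tumour 4 was the highest of all 8, and sensitive tumours 1 to 3 the lowest. The log2 fold change was 0.43 ± 0.28 with all 8 and 0.70 ± 0.17 without that library (SE; limma adjusted p = 0.347 and 0.0125). Hsph1 gave 0.71 ± 0.26 and 0.96 ± 0.16, and Hspa4 gave 0.31 ± 0.23 and 0.53 ± 0.14 in the same order of fits, both passing only in the second.

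Hsp90aa1 had 12381, 8321, 11654 and 8033 normalized counts in resistant tumours, against 4883, 4213, 3680 and 12274 in sensitive tumours. Sensitive tumour 4 again sat at the top of the resistant range. The difference was 0.84 ± 0.37 with all 8 and 1.23 ± 0.20 without it (SE; limma adjusted p = 0.195 and 0.0021). Hsp90ab1 had 18922, 24708, 17481 and 23250 in resistant tumours, against 14396, 14314, 15990 and 19058 in sensitive tumours, with 0.40 ± 0.19 and 0.49 ± 0.17 (limma adjusted p = 0.223 and 0.0494). Of the reads of both HSP90 genes, Hsp90aa1 held 25.2% to 40.0% in resistant tumours, against 18.7% to 25.3% in sensitive tumours 1 to 3; sensitive tumour 4 had 39.2%.

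Among the small heat shock proteins, Hspb1 and Cryab were lower in resistant tumours once sensitive tumour 4 was left out, and Hspb8 and Bag3 were not called. Hspb1 had 470, 886, 839 and 307 normalized counts in resistant tumours, against 1320, 1635, 1600 and 463 in sensitive tumours; sensitive tumour 4 was again inside the resistant range. Its difference was -0.97 ± 0.48 with all 8 and -1.40 ± 0.35 without that library (SE; limma adjusted p = 0.23 and 0.014). Cryab had 238, 159, 197 and 241 in resistant tumours, against 375, 302, 310 and 291 in sensitive tumours, so here sensitive tumour 4 stayed with its own group and the groups did not overlap. The difference was -0.63 ± 0.20 with all 8 and -0.67 ± 0.20 without it (limma adjusted p = 0.144 and 0.0285). Bag3 had 1523, 1509, 2104 and 659 in resistant tumours, against 832, 1046, 1083 and 669 in sensitive tumours, with overlapping groups and no call under either fit. Hspb8, at 99.8 to 327 in resistant and 79.5 to 229 in sensitive tumours, did not pass either. Bag3 gave 0.58 ± 0.34 and 0.45 ± 0.35 and Hspb8 gave 0.15 ± 0.42 and 0.19 ± 0.46, with all 8 and without sensitive tumour 4 (SE).

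**Figure D4:**
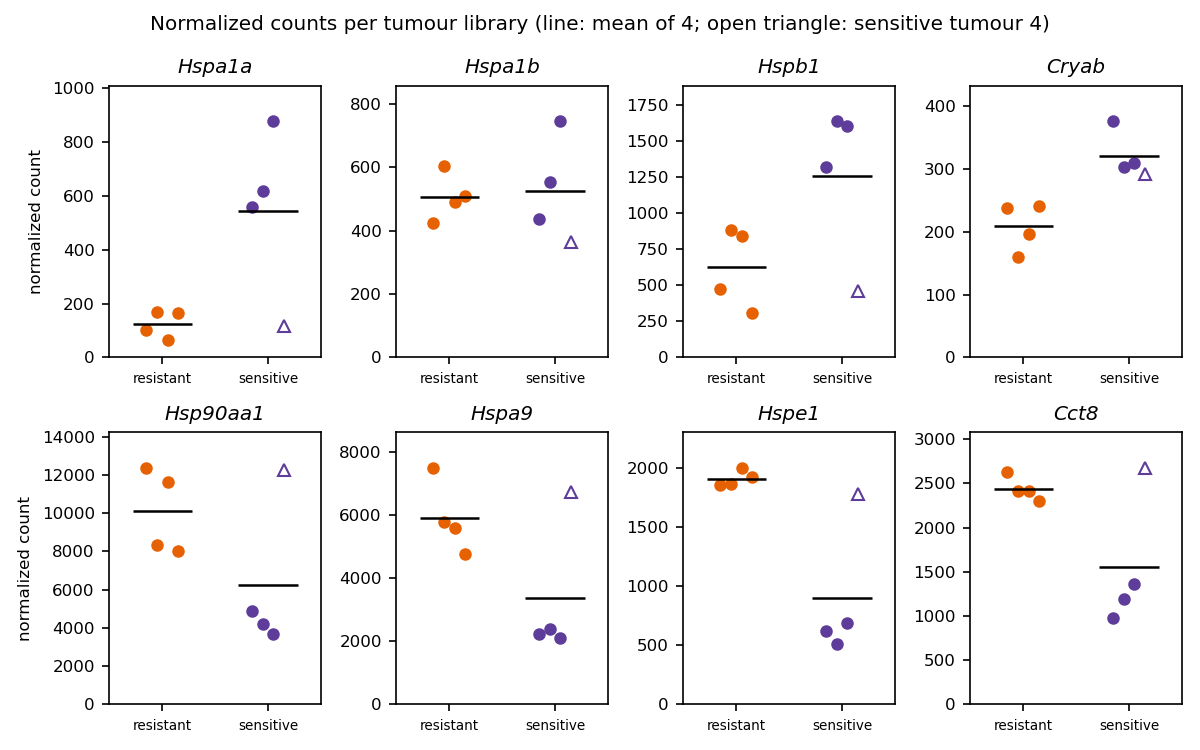
Normalized counts (y axis, linear from 0) of 8 chaperone genes in each tumour library, resistant left of sensitive (x axis); points are libraries, the open triangle is sensitive tumour 4 and lines are means of 4. Sensitive tumour 4 lies at 116 for Hspa1a and 463 for Hspb1, within the resistant range, and at 12274 for Hsp90aa1, while for Cryab it lies at 291, beside the other sensitive tumours.

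Of the J proteins, Dnaja1 had 4219, 4036, 4507 and 3587 normalized counts in resistant tumours, against 5759, 6536, 5664 and 3704 in sensitive tumours. It was the only J protein to pass without sensitive tumour 4, with -0.55 ± 0.13 (SE; limma adjusted p = 0.0119), and gave -0.38 ± 0.20 with all 8. Dnajb1 gave 0.02 ± 0.20 with all 8 and 0.03 ± 0.21 without that library, and Dnajb4 gave -0.32 ± 0.22 and -0.44 ± 0.20. The groups of both genes overlapped under either fit.

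All 8 TRiC subunits had log2 fold changes above 0 under either fit, 0.078 to 0.77 with all 8 tumours and 0.27 to 1.07 without sensitive tumour 4. Cct8 had 2627, 2415, 2414 and 2298 normalized counts in resistant tumours, against 974, 1184, 1358 and 2676 in sensitive tumours. The resistant tumours lay close together, and sensitive tumour 4 was above all of them. Cct8 gave 0.77 ± 0.28 and, without that library, 1.07 ± 0.14 (SE; limma adjusted p = 0.162 and 0.000961). Tcp1 had 3711, 3886, 2585 and 5425 in resistant tumours, against 3356, 3121, 2925 and 4761 in sensitive tumours, which overlapped even without sensitive tumour 4 (limma adjusted p = 0.373). Without sensitive tumour 4 the subunits Cct3, Cct4, Cct5, Cct7 and Cct8 passed, and Tcp1, Cct2 and Cct6a did not (the last with a limma adjusted p of 0.0519).

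Of the co-chaperones, Stip1 had 1815, 1596, 2383 and 1621 normalized counts in resistant tumours, against 1001, 883, 999 and 2592 in sensitive tumours. St13 had 2743, 2195, 2686 and 2041, against 2040, 1917, 1979 and 3357. Sensitive tumour 4 was the highest of the 8 for both genes. With all 8 tumours Stip1 gave 0.57 ± 0.33, Ahsa1 0.47 ± 0.26 and Fkbp4 0.40 ± 0.26 (SE; limma adjusted p = 0.294, 0.272 and 0.342). Without sensitive tumour 4 Stip1 gave 0.93 ± 0.17, Ahsa1 0.70 ± 0.18 and Fkbp4 0.66 ± 0.17 (SE; limma adjusted p = 0.0033, 0.0163 and 0.0155), and St13 and Chordc1 did not pass (limma adjusted p = 0.158 and 0.151).

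The mitochondrial chaperones had the largest median log2 fold change of the role groups, 0.99 with all 8 tumours and 1.39 without sensitive tumour 4. Hspe1 had 1850, 1861, 1998 and 1920 normalized counts in resistant tumours, against 617, 504, 682 and 1780 in sensitive tumours, so even sensitive tumour 4 was just below the resistant range. The log2 fold change was 1.28 ± 0.35 with all 8 tumours and 1.67 ± 0.14 without that library (SE; limma adjusted p = 0.139 and 0.00015). Hspd1 had 7917, 7497, 8052 and 7806 in resistant tumours, against 4375, 3731, 3799 and 11523 in sensitive tumours, with sensitive tumour 4 the highest of all. It gave 0.60 ± 0.34 and 0.98 ± 0.12 (limma adjusted p = 0.285 and 0.0007). Hspa9 had 7489, 5768, 5574 and 4772 in resistant tumours, against 2226, 2365, 2085 and 6715 in sensitive tumours, and gave 0.99 ± 0.36 and 1.39 ± 0.17 (limma adjusted p = 0.161 and 0.000588).

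Hspd1 and Hspe1, the HSP60 ring and its lid, are neighbours read away from each other. The 200 bases before Hspe1 are shown because they lie in the promoter region of both genes and hold overlapping matches to the motif of 3 units. They come from RefSeq, GRCm38.p6, chr1:55087948-55088147 on the plus strand, and capitals mark the matches to GAANNTTC or TTCNNGAA, which run together here.
Hspe1: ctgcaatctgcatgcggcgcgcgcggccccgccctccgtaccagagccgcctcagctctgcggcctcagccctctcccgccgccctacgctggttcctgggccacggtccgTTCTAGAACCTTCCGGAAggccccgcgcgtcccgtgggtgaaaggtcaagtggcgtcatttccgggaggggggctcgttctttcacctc
A match describes these letters and is not a measured binding site. Both genes were higher in resistant than in sensitive tumours without sensitive tumour 4, both fell with CCG-1423, and neither passed with vismodegib.

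**Figure D5:**
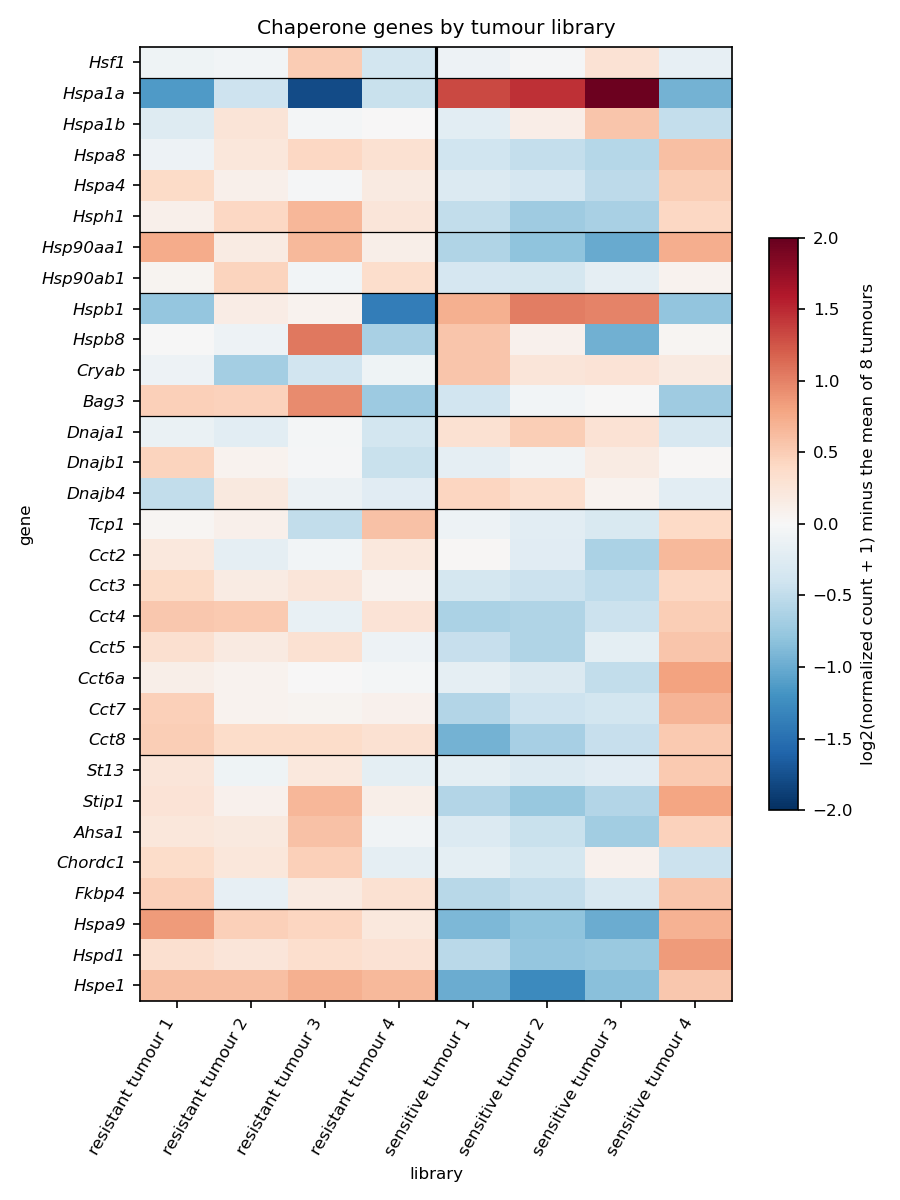
Log2(normalized count + 1) of the 31 genes (rows, in role groups) in each tumour library (columns, resistant left of sensitive), minus the gene's mean over the 8 tumours; red is above and blue below that mean, from -2 to 2. In sensitive tumours 1 to 3 Hspa1a and Hspb1 are red where TRiC subunits, co-chaperones and mitochondrial chaperones are mostly blue, and sensitive tumour 4 has the colours of the resistant columns for most genes, with Cryab, Bag3 and Chordc1 among the exceptions.

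Some cell type markers and other measures moved with the same split of the tumours, and their part in these results was not tested. Others overlapped between resistant tumours and sensitive tumours 1 to 3. Fibroblast markers summed to 77400 to 117394 in the former and 64299 to 136005 in the latter. In the same order, macrophage markers summed to 6557 to 79650 and 11309 to 21993. Smooth muscle markers gave 4421 to 9118 and 2024 to 8039, and the 4 listed T cell markers 4.76 to 8.37 and 1.66 to 7.06. All 4 T cell markers had at most 3 reads in each of sensitive tumours 1 to 3, and Cd3g was at 0 in resistant tumours. The T cell sums thus rest on very few reads. Skeletal muscle markers, given below, overlapped as well. The 6 basal keratinocyte markers, all detected, summed to 29454 to 80605 in resistant tumours, against 149563 to 209297 in sensitive tumours 1 to 3; sensitive tumour 4 had 76894. The 5 neutrophil markers, all detected, summed to 6150 to 8966 in resistant tumours, against 633 to 1077 in sensitive tumours 1 to 3; sensitive tumour 4 had 16352. The 5 endothelial markers, all detected, summed to 1735 to 3513 in resistant tumours and 1102 to 1936 in sensitive tumours. Of 7 differentiated keratinocyte markers 6 were listed, and they summed to 1587 to 2215 in resistant and 2859 to 6368 in sensitive tumours. Sensitive tumour 4, with Krt2 at 0, had 2859 and lay above the resistant range. The 10 skeletal muscle markers, of a tissue known for high Cryab, summed to 109 to 1268 in resistant and 79.5 to 196 in sensitive tumours, with Myh2 at 0 in all sensitive tumours. The 6 Schwann cell and melanocyte markers summed to 22.3 to 55.5 in resistant tumours, with Tyrp1 at 0, against 133 to 177 in sensitive tumours 1 to 3; sensitive tumour 4 had 40.5, with Sox10 and Dct at 0. The 4 adipocyte markers summed to 67.4 to 461 in resistant tumours, against 22.6 to 34.8 in sensitive tumours 1 to 3; sensitive tumour 4 had 199, with Adipoq and Cidec at 0. Malat1 took 1.30% to 1.69% of reads in resistant tumours, against 2.89% to 3.20% in sensitive tumours 1 to 3; sensitive tumour 4 had 1.31%, and sensitive tumours 1 to 3 were also the shallowest.

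Beyond the 31 genes, no gene of the chaperone lists passed with all 8 tumours. Without sensitive tumour 4, 4 prefoldin and TRiC partners rose and 1 fell of 9 tested, with the prefoldin subunits Pfdn4 and Pfdn1 at 1.79 ± 0.23 and 1.55 ± 0.25 and the phosducin-like Pdcl at -0.76 ± 0.21. Of 11 mitochondrial partners 4 rose and 1 fell, with Pam16 at 1.31 ± 0.29 and Clpx at -0.59 ± 0.17. Of 16 other HSP90 co-chaperones 3 rose and 3 fell, with Ptges3 at 1.16 ± 0.31 and the myosin chaperone Unc45a at -1.70 ± 0.20. Of 12 other HSP70 and HSP110 proteins and exchange factors 1 rose and 3 fell, and of 11 other cytosolic J proteins 3 rose and 3 fell, with Dnaja4 at 0.89 ± 0.15 and Dnajb2 at -0.59 ± 0.15. The 3 that fell include Dnajc6, which passed the filter on low values only through sensitive tumours 1 to 3, where it is high, so it adds nothing to that count; it was not tested with all 8 tumours. Of 5 other small heat shock proteins tested, 1 rose and 0 fell. It was Hspb7, at 1.54 ± 0.51 with overlapping groups, and the list's median was 0.56. Of 5 heat shock regulators Hsbp1 rose with 0.74 ± 0.15 and Hsf4 fell with -0.81 ± 0.24. Of 9 immediate early genes 5 rose, with Dusp1 at 1.29 ± 0.22 and Fos at 1.69 ± 0.36, and none fell. Each gene named with a value passed a limma adjusted p of 0.05 in that fit, in which 40.0% of all genes passed.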

How the data were processed

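Of the samples, 8 tumour RNA libraries (4 resistant, 4 sensitive) and 9 ASZ001 libraries were used, and the 8 exome samples were not analysed here. Both deposited tables hold normalized counts, a signal that the authors obtained by dividing each library's whole reads by 1 size factor, for tumours and cells apart; 100% of values became whole reads within 0.01 read. The submitters' processing notes list TopHat, DESeq and mm9 without roles or versions. Annotation, counter and strandedness are not known from the labels.

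Log2(normalized count + 1) was fitted with limma 3.58.1 (R 4.3.3) and a variance trend. Genes needed a value of 10 or more in 4 tumour or 3 cell libraries, or in 1 library fewer where a library was left out. Tests were 2-sided, with Benjamini-Hochberg adjustment over all tested genes and a threshold of 0.05. The 9 cell libraries shared 1 estimate of the spread. The alternatives were edgeR 4.0.16 and DESeq2 1.42.0 on the recovered reads, other pseudocounts, filters and scalings, a replicate block and leaving out each library. Scaling by total reads without Rn45s was added after seeing the data. Fold changes on this scale are understated for low genes. Scripts were tested on simulated data. No library repeated another: chi-square per degree of freedom between libraries of a group was at least 12.8 in tumours and 1.81 in cells. The members, lists and role groups were chosen with earlier results of these data known. Values in every library are given for Hsf1 and, within each role group, for the member of largest change and the member of highest mean count; others are named with their values, and from other lists at most 2 per direction by smallest p. Promoter windows are from RefSeq, GRCm38.p6. The files carry symbols only, and no coordinate was converted.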

Additional observations from a re-analysis of the deposited data

Results flagged for a closer look

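In groups of 4 tumours, a library was marked when its distance from the nearest other, divided by the group's range, passed Dixon's 95% critical value for 4 values. The rule was run on these genes only, so no share over all genes stands beside the number of marked pairs. Chance gives about 1 in 20 for independent pairs, but these pairs share libraries, so that rate is no fair yardstick. Of 62 pairs of a gene and a tumour group, 14 were marked. In 13 of them sensitive tumour 4 was the highest sensitive tumour. These were Hspa8 at 37149 normalized counts (other sensitive tumours 16519 to 18671), Hsph1 at 2174 (999 to 1160), Hsp90aa1 at 12274 (3680 to 4883), Hspa9 at 6715 (2085 to 2365), Hspd1 at 11523 (3731 to 4375) and Hspe1 at 1780 (504 to 682). The TRiC subunits Cct3 at 1492 (787 to 871), Cct4 at 2380 (1087 to 1252), Cct6a at 5608 (2299 to 2844) and Cct7 at 3376 (1397 to 1633) belonged to them, as did the co-chaperones St13 at 3357 (1917 to 2040), Stip1 at 2592 (883 to 1001) and Fkbp4 at 2469 (1136 to 1333). The remaining pair was Cct7 in resistant tumour 1, at 2942, with the other resistant tumours at 2196 to 2224.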

How the results depend on the processing

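In tumours, where 0 members passed, DESeq2 called 2, and leaving out 1 library gave 0 to 20, the 20 without sensitive tumour 4; all genes called were 17, with 0 to 20 under the other settings on normalized values, 0 by edgeR, 1638 by DESeq2 and 6184 without sensitive tumour 4. Scaling by total reads put the median log2 fold change of all tumour genes at -0.08, against 0.03, and that of the members at 0.24, against 0.35. With CCG-1423, 24 members passed over vehicle and 25 over vismodegib, and no setting moved either count by 1.5 times. For vismodegib over vehicle, 2 members passed: 1 without the filter on low values, 17 with total-read scaling (which moved the median of all genes to 0.09, against 0.01), 5 with a fit of the 2 groups alone and 1 to 2 when 1 library was left out; all genes called were 703, with 3229 under total-read scaling, 1721 with the 2 groups alone and 325 to 498 without 1 library. The cause was not tested. No member that passed changed sign under any setting run. Replicate numbers did not pair libraries: deviations of same-numbered libraries correlated at -0.15 to 0.12 in tumours and -0.04 to 0.04 in cells. A replicate block gave 0 members called in tumours, 24 with CCG-1423, 2 with vismodegib and 25 for CCG-1423 over vismodegib. Depth sets the limit for few genes here, since 3 reads equal 2.09 to 4.97 normalized counts in tumours and 2.45 to 3.40 in cells.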

Other observations

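The tumour and cell tables were normalized separately, so levels across them are given here only in CPM of the reads at genes, with no test. The 31 genes together took 0.809% to 0.889% of reads at genes in resistant tumours, against 0.611% to 0.661% in sensitive tumours 1 to 3; sensitive tumour 4 had 1.02%. They took 1.18% to 1.32% with CCG-1423, 1.52% to 1.55% with vismodegib and 1.39% to 1.42% with vehicle. Hspb1 averaged 43.5 ± 20.2 CPM in resistant tumours and 95.1 ± 43.0 in sensitive tumours (SD, n = 4 each). In the cells it averaged 305 ± 21.7 CPM with CCG-1423, 1372 ± 38.6 with vismodegib and 1162 ± 12.1 with vehicle (SD, n = 3 each). Cryab averaged 14.4 ± 2.56 CPM in resistant tumours and 24.0 ± 3.80 in sensitive tumours, beside 401 ± 55.4 with CCG-1423, 61.1 ± 2.42 with vismodegib and 60.5 ± 0.77 with vehicle. Every library of the line thus lay above every tumour for both genes, and the fall of Hspb1 with CCG-1423 left it above the tumour range. The division of reads between the inducible HSP70 copies also differed between tumours and line: Hspa1a had 8.67 ± 3.69 CPM in resistant and 41.1 ± 24.0 CPM in sensitive tumours, and Hspa1b 35.3 ± 6.22 and 39.4 ± 12.8 CPM. With vehicle the line held 20.7 ± 0.62 CPM of Hspa1a and 339 ± 3.39 CPM of Hspa1b.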
